A study of Mus musculus with 2 samples.

Results

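The oncomir-1 cluster, which runs from miR-17 to miR-92a inside the gene Mir17hg, and the miR-106b-25 cluster inside Mcm7 are groups of microRNA (miRNA) genes whose hairpins lie side by side in a primary transcript. They were described in the adrenal gland of aged mice through all 9 of their genes, chosen by GENCODE M21 symbol from the 2202 miRNA genes counted. The 6 genes of the first, called the Mir17hg cluster from here on, are Mir17, Mir18, Mir19a, Mir20a, Mir19b-1 and Mir92-1, on chromosome 14. The 3 genes of miR-106b-25 are Mir106b, Mir93 and Mir25, on chromosome 5. The rule uses gene names and no measured value, though it was set with earlier results of these data known. Small RNA was sequenced from total RNA of adrenal gland tissue from female B6CASTF1/J mice aged 18 to 20 months, with no treatment named in the labels. B6CASTF1/J mice are hybrids of the C57BL/6J and CAST/EiJ strains, and the counts refer to the C57BL/6J genome (mm10). The labels give 1 group of 2 biological replicates, both entered under 1 donor record, so differences between them measure the spread between these samples, which may be technical. With 1 group there is no condition to compare. The levels of the clusters, their composition and their difference between the 2 libraries are given instead. The labels do not say whether glands were pooled.

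A miRNA is cut from a hairpin by Drosha and then Dicer, and its seed, bases 2 to 8 from the 5′ end, directs it to messenger RNAs that are then repressed. The Mir17hg cluster is transcribed under the control of MYC and E2F factors. Its products repress, among others, the cell cycle inhibitor p21 and the pro-apoptotic protein BIM. The miR-106b-25 cluster lies within Mcm7, which encodes a subunit of the helicase that opens DNA for replication, and is transcribed with it. Both clusters are known from proliferating and blood-forming cells. The miR-106a-363 cluster on the X chromosome is their paralog.

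The sequences below group the 9 genes by seed, since genes with 1 seed are predicted to share targets, and capitals mark the seed. They are from RefSeq on GRCm38.p6, in which all 9 genes have a mature sequence, and are written 5′ to 3′. Only the arm that carries the family's seed is shown for each gene. The counts belong to whole hairpins, so the arms were not resolved. The 4 genes of the miR-17 seed are spread over both clusters and differ outside the seed.
miR-17-5p: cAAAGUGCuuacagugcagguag
miR-20a-5p: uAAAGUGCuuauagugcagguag
miR-106b-5p: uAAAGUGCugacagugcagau
miR-93-5p: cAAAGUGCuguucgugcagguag
The miR-25 and miR-92a seed also joins both clusters.
miR-25-3p: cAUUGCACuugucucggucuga
miR-92a-3p: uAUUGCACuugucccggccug
The seeds of miR-18 and miR-19 belong to the Mir17hg cluster alone among the 2 clusters.
miR-18a-5p: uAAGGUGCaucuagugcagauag
miR-19a-3p: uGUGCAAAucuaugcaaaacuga
miR-19b-3p: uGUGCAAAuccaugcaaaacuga
From position 1 at the 5′ end, miR-19a-3p and miR-19b-3p differ by 1 base, U11C, with the base of miR-19a first. The 5p arms of miR-17 and miR-20a differ at 2 of 23 bases, and those of miR-106b and miR-93 at 5 of the 21 bases compared.

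On mm10, with 1-based positions, the hairpins of the Mir17hg cluster span 836 bases of chromosome 14, from Mir17 (ENSMUSG00000065508.1, 115043671 to 115043754, plus strand) to Mir92-1 (ENSMUSG00000076062.1, 115044427 to 115044506). All 6 lie inside an exon of the long noncoding gene Mir17hg. The miR-106b-25 hairpins span 498 bases of chromosome 5 on the minus strand, from Mir106b (ENSMUSG00000065514.1, 138165737 to 138165818) through Mir93 (ENSMUSG00000065527.1, 138165523 to 138165610) to Mir25 (ENSMUSG00000065394.1, 138165321 to 138165404). They are intronic in the protein-coding transcripts of Mcm7 that contain them. Mir93 and Mir25 also lie in an exon of an Mcm7 transcript annotated as a retained intron, which does not reach Mir106b.

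Own-strand counts in genes totalled 2590051 in replicate 1 and 2291030 in replicate 2, and levels are given as counts per 1000000 of these totals (CPM). How evenly reads of different miRNAs were captured was not tested, so levels, orders and shares are those of counted reads. Reads that aligned to several places were not counted in any gene, and numbered 0.910 and 0.855 for each counted read. For the 9 genes, opposite-strand counts were 0 in both libraries, and ignoring strand changed none of their counts. Marker lists were read for cell types the glands could hold and for other organs and tissues. The highest were the endocrine list (61347 ± 6731 CPM, of which Mir375 held 58242) and the endothelial Mir126a (49082 ± 22161 CPM; SD, n = 2 each). The 6 leukocyte miRNAs summed to 3045 and 2955 CPM in replicates 1 and 2, and 3 erythroid miRNAs to 902 and 490 CPM. The 9 striated muscle miRNAs summed to 598 and 81.2 CPM, with 4 at 0 in both libraries (Mir1a-1, Mir133a-1, Mir133a-2 and Mir133b). The liver miRNA Mir122 reached 622 and 702 CPM, 4 kidney miRNAs 59.8 and 36.2 CPM, and 2 pancreatic ones 1.93 and 0 CPM. For the genes of these lists, sequences shared with other loci were not searched, and reads lost to several places were not measured. In bulk tissue, fewer cells of a type and less RNA per cell cannot be told apart.

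Both clusters were present at intermediate levels in the aged adrenal gland, and nearly all of their counts came from 7 of the 9 genes, which ranked between 53 and 204 of the 2202 genes in either library. Of these 2202 genes, 1478 had no count in either library and 367 had a summed count of at least 20. The 9 genes together held 0.602% ± 0.0354 of counts (SD, n = 2). The Mir17hg cluster had 7490 counts in replicate 1 and 8253 in replicate 2, or 2892 CPM (Wilson 95% interval 2827 to 2958) and 3602 CPM (3526 to 3681), a mean of 3247 ± 502 CPM (SD, n = 2). The miR-106b-25 cluster had 7465 and 6121 counts, or 2882 CPM (2818 to 2948) and 2672 CPM (2606 to 2739), a mean of 2777 ± 149 CPM (SD, n = 2). In replicate 1 the clusters were level, with a ratio of 1.00 between their counts, and in replicate 2 the Mir17hg cluster was 1.35 times miR-106b-25. These intervals take in counting error alone. They treat each read as a separate molecule, which does not hold for reads copied by PCR.

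Within the miR-17 seed family, Mir93 and Mir17 were the leading genes of their clusters. Mir93 had 5244 counts in replicate 1 and 5314 in replicate 2, which is 2025 and 2319 CPM (mean 2172 ± 208; SD, n = 2), ranks 54 and 53 of the 2202 genes. Mir17, whose miRNA has given the family its name, had 3554 and 4282 counts, or 1372 and 1869 CPM (mean 1621 ± 351; SD, n = 2). The highest value of Mir17 lay below the lowest of Mir93, so their levels did not overlap. Mir20a had 1308 and 1410 counts, or 505 and 615 CPM (mean 560.2 ± 78.1; SD, n = 2). Mir106b had 1663 and 593 counts, or 642 and 259 CPM (mean 450.5 ± 271; SD, n = 2). Its value was above that of Mir20a in replicate 1 and below it in replicate 2, so the order of these 2 genes was not settled.

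By counted reads, Mir92-1 was the third most abundant of the 9, and Mir25, which has the same seed, was lower. Mir92-1 had 2436 and 2362 counts in replicates 1 and 2, or 941 and 1031 CPM (mean 986 ± 64.0; SD, n = 2). Mir25 had 558 and 214 counts, or 215 and 93.4 CPM (mean 154 ± 86.3; SD, n = 2). Mir18 had 186 and 190 counts, or 71.8 and 82.9 CPM (mean 77.4 ± 7.86; SD, n = 2), below both values of Mir25. In order of mean level the genes were Mir93, Mir17, Mir92-1, Mir20a, Mir106b, Mir25, Mir18, Mir19b-1 and Mir19a. Neighbours in this order overlapped between libraries for Mir20a with Mir106b and for Mir19b-1 with Mir19a, and for no other pair. The hairpins are 80 to 107 bases long, and per base of hairpin the order differed only in that Mir106b came before Mir20a. The labels give a size range below 30, read here as bases, which is shorter than any of these hairpins. Hairpin length is therefore no correction for these counts.

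The 2 miR-19 genes were almost without counts although they lie between neighbours with many. Their miRNAs are known as the main oncogenic component of the Mir17hg cluster. Mir19a had 4 counts in replicate 1 and 1 in replicate 2 (1.54 and 0.436 CPM). Mir19b-1 had 2 and 8 counts (0.772 and 3.49 CPM). The upper limit set by finding no read, 3 counts, lies at 1.16 CPM for replicate 1 and 1.31 CPM for replicate 2, close to these values. Both genes were below the minimum summed count of 20 for the test between libraries, so 7 of the 9 genes were tested. The plot of levels shows the contrast along the transcript.

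**Figure D1:**
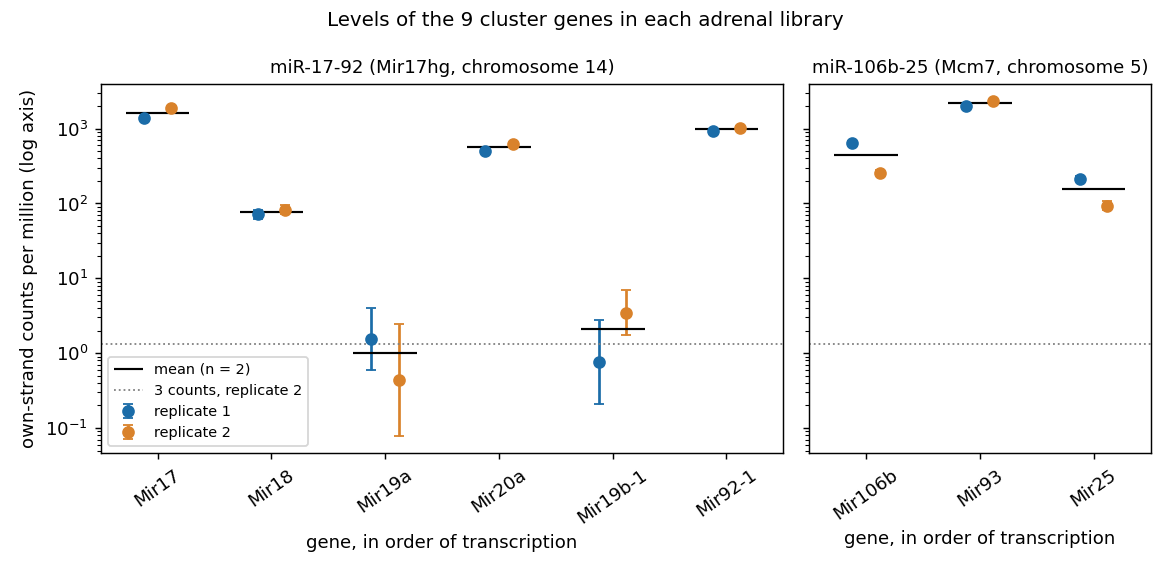
Own-strand CPM (log axis) of the 9 genes in replicate 1 (blue) and replicate 2 (orange), with Wilson 95% intervals, the mean of both as a bar and the level of 3 counts in replicate 2 as a dotted line. Mir19a and Mir19b-1 lie near the dotted line, while their neighbour Mir20a reaches 505 and 615 CPM; Mir106b and Mir25 are lower in replicate 2, and the values of the other 5 tested genes are higher.

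Sequence identity between loci bears on these counts, because a read that fits several places is not counted. The mature miR-19b-3p sequence occurs in Mir19b-1 and in Mir19b-2 on the X chromosome, and miR-92a-3p occurs in Mir92-1 and in Mir92-2. The stretches below show each shared miRNA in capitals with 6 bases of its hairpin on either side.
Mir19b-1: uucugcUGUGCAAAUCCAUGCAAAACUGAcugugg
Mir19b-2: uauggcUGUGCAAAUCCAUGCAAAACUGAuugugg
Mir92-1: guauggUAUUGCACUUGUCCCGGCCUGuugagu
Mir92-2: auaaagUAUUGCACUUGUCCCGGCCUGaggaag
The longest run shared by the hairpins was 25 bases for the miR-19b pair and 22 bases for the miR-92a pair. In both pairs the first base after the miRNA differs between the loci. No annotated arm of the other 7 genes occurred in another miRNA hairpin of GENCODE M21, and the longest run any of these genes shared was 17 bases. Mir19a is among them: its longest shared run was 13 bases, with Mir19b-2, and it had 4 and 1 counts. Mir92-1, whose miRNA is shared, had 2436 and 2362. How many reads of miR-19b and miR-92a were lost to several places was not tested, and the rest of the genome was not searched for these sequences.

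The composition of the Mir17hg cluster moved less between the libraries than that of miR-106b-25. These shares do not depend on how library sizes are scaled. Of the counts of the Mir17hg cluster, Mir17 made up 47.4% (Wilson 95% interval 46.3 to 48.6) in the first library and 51.9% (50.8 to 53.0) in the other. Mir92-1 made up 32.5% and 28.6%, Mir20a 17.5% and 17.1%, and Mir18 2.48% and 2.30%. Mir19a held 0.0534% and 0.0121%, and Mir19b-1 0.0267% and 0.0969%. The intervals of the libraries overlapped for Mir20a and Mir18 and did not for Mir17 and Mir92-1. In miR-106b-25, Mir93 made up 70.2% of counts (69.2 to 71.3) in replicate 1 against 86.8% (85.9 to 87.6) in replicate 2. Mir106b made up 22.3% (21.3 to 23.2) and 9.69% (8.97 to 10.5), and Mir25 7.47% (6.90 to 8.09) and 3.50% (3.06 to 3.99). The intervals of the 2 libraries did not overlap for any of these 3 genes. The ratio of Mir93 to Mir106b was thus 3.15 in replicate 1 and 8.96 in replicate 2, while that of Mir106b to Mir25 was 2.98 and 2.77. The stacked shares in the composition plot show that Mir106b and Mir25 had smaller shares in the same library, replicate 2.

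**Figure D2:**
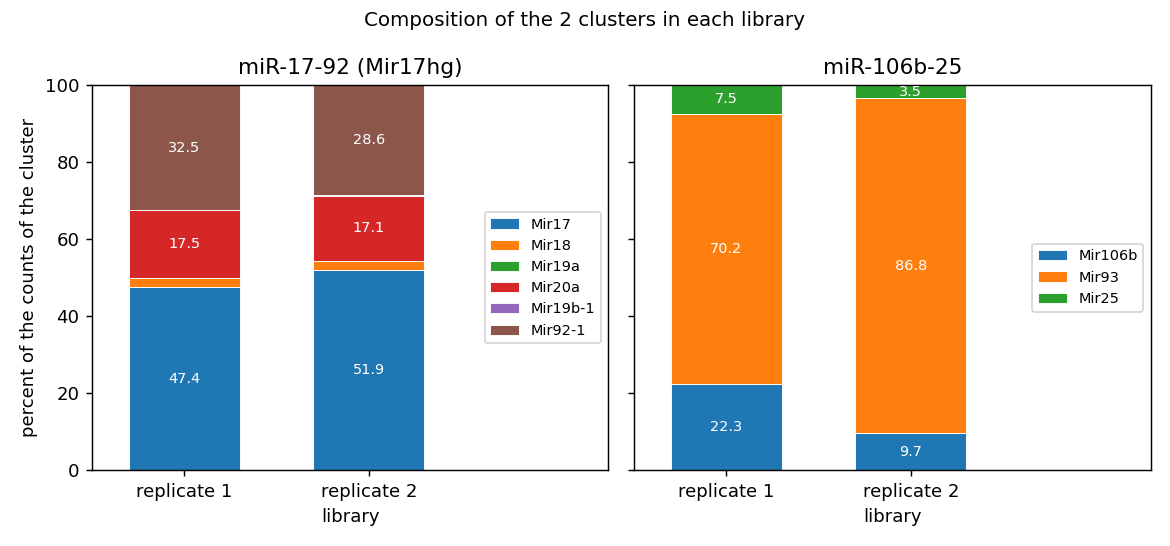
Percent of each cluster's own-strand counts that came from each gene, stacked, in replicates 1 and 2, with shares over 3% printed. In the Mir17hg cluster no gene moved by more than 4.43 percentage points, while in miR-106b-25 Mir93 took 70.2% and 86.8%.

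Between the 2 libraries, 3 of the 4 tested genes of the Mir17hg cluster were higher in replicate 2, as was Mir93, and Mir106b and Mir25 were higher in replicate 1. These 6 of 7 calls stand against a background in which 62.7% of the 367 tested miRNA genes were called, 30.2% as higher in replicate 2 and 32.4% as higher in replicate 1. Counting error is the only spread in this test, which compares 2 libraries and no conditions. Mir17 had a log2 ratio (replicate 2 over replicate 1, libraries scaled by TMM) of 0.48 (exact 95% interval 0.42 to 0.55, adjusted p = 8.3e-49, exact conditional binomial test). Mir20a had 0.32 (0.21 to 0.43), Mir93 0.23 (0.18 to 0.29) and Mir92-1 0.17 (0.09 to 0.25). Mir106b had -1.27 (-1.41 to -1.14, adjusted p = 4.47e-84, exact conditional binomial test), which is 2.42-fold higher in replicate 1. Mir25 had -1.17 (-1.40 to -0.94, adjusted p = 1.95e-25, same exact test), 2.24-fold higher in replicate 1. Mir18 had 0.24 (-0.05 to 0.54) and did not pass (exact test, adjusted p = 0.156).

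The median log2 ratio was 0.23 over the 7 tested members and 0.01 over all tested genes. By size, Mir106b and Mir25 were ranks 46 and 55 of 367, and both were among the 18.8% of tested genes that differed by at least 2-fold. The other 5 members ranked from 179 (Mir17) to 293 (Mir92-1), and all but Mir17 fell in the middle 50% of tested genes, from -0.57 to 0.42. When the spread between the 2 libraries was taken as the error, with a biological coefficient of variation of 0.432 in edgeR's exact test, 0 of the 7 members passed. Their adjusted p values were all 1 and 0 of the 7 had an unadjusted p under 0.05, against 20 of all 367 genes; 1.36% of the 367 passed after adjustment. That spread was estimated from the same 2 libraries that were then compared, so few calls are built into this setting and it says nothing about the members. With DESeq2 size factors 5 members were called against 61.6% of all genes, and with TMM factors from all genes 5 against 61.0%. The latter called 85 of all genes as higher in replicate 2 and 139 as higher in replicate 1, where the main scaling called 111 and 119. Mir92-1 was the member that no longer passed (log2 ratios 0.08 and 0.04, adjusted p = 0.0960 and 0.461, exact conditional binomial test). The same 6 members were called with total counts, with strand ignored, with no filter on low counts and with a summed count of at least 200, where 61.6%, 62.6%, 31.5% and 78.6% of all genes tested were called.

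**Figure D3:**
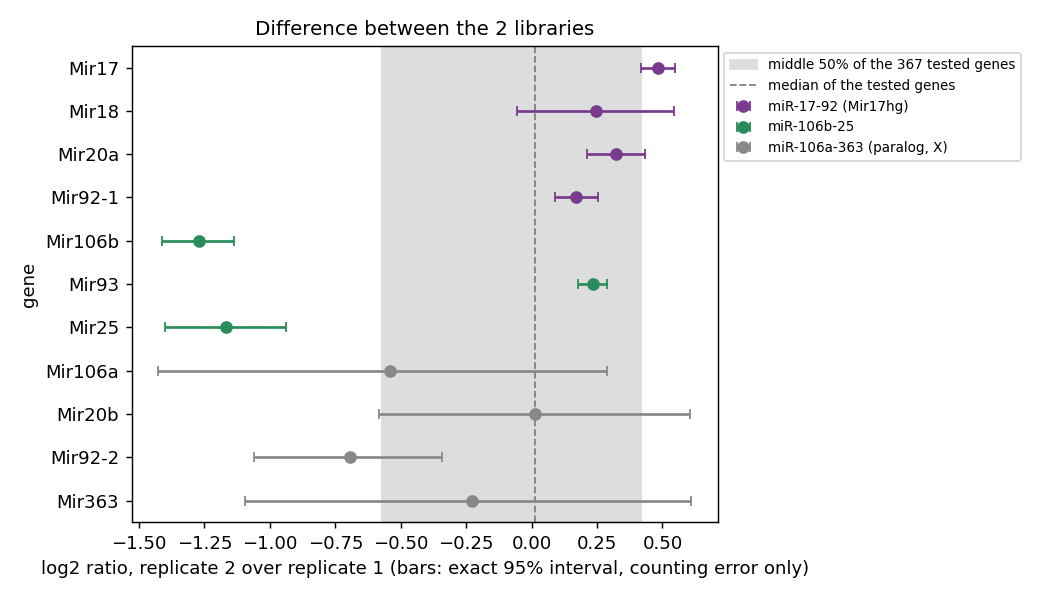
Log2 ratio of replicate 2 over replicate 1 for the 7 tested members and the 4 tested genes of the paralogous X cluster, with exact 95% intervals for counting error. The grey band holds the middle 50% of the 367 tested genes, from -0.57 to 0.42; Mir106b, Mir25 and the paralog Mir92-2, at -0.69, lie left of it and Mir17, at 0.48, just right of it.

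Set beside other groups of neighbouring miRNA genes, the Mir17hg cluster was among the most uniform and miR-106b-25 was in the middle. Chains were formed from tested genes on 1 strand with gaps of at most 10 kb, and 17 chains had at least 3 genes. The log2 ratios of the Mir17hg cluster ranged over 0.31, from Mir92-1 to Mir17, which was rank 16 of the 17 by range, counted from the widest. Those of miR-106b-25 ranged over 1.51, rank 8. The median range of the other 15 chains was 1.21. The widest was the chain from Mir379 to Mir3072 on chromosome 12, with 33 genes and a range of 2.42, and the narrowest that of Mir182, Mir96 and Mir183, with 0.13. Chains also differed in length, and among the 10 other chains of 3 or 4 genes the median range was 0.96, with 4 wider than miR-106b-25 and 1 narrower than the Mir17hg cluster. Genes called in both directions were found in 6 of the 15 other chains, as in miR-106b-25.

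**Figure D4:**
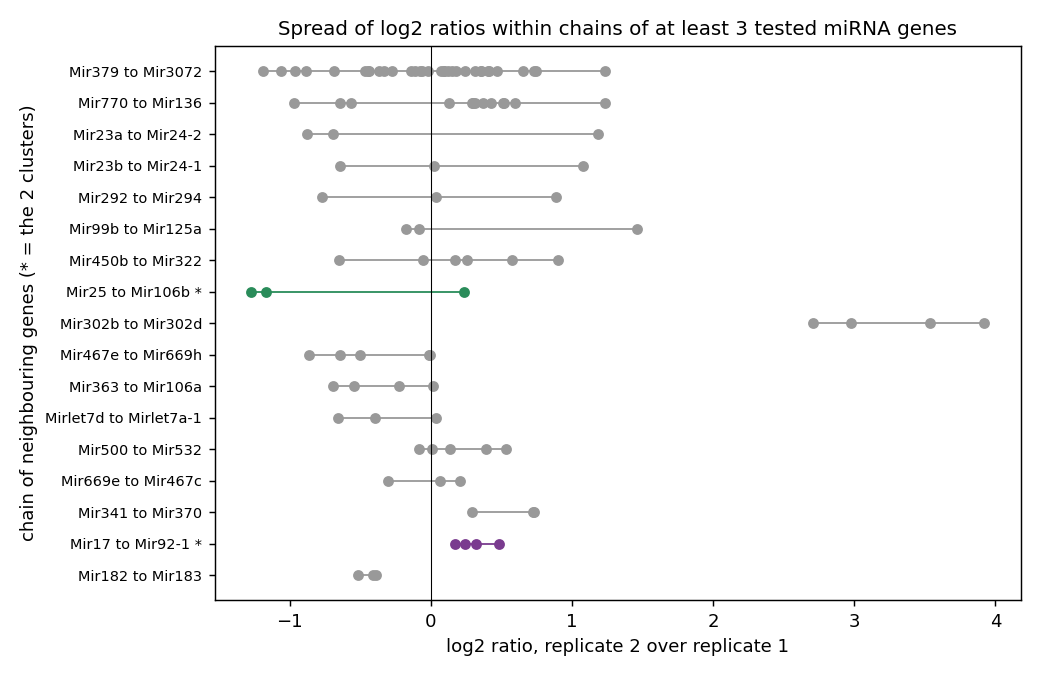
Log2 ratios of the genes in each of the 17 chains of at least 3 tested neighbouring miRNA genes, ordered from the widest range (top) to the narrowest, with miR-106b-25 in green and the Mir17hg cluster in purple. Mir93 stands at 0.23, apart from Mir106b at -1.27 and Mir25 at -1.17, while the 4 tested genes of the Mir17hg cluster lie between 0.17 and 0.48.

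The paralogous miR-106a-363 cluster was far lower than both. Its 6 genes summed to 308 and 193 counts in replicates 1 and 2, or 119 and 84.2 CPM (mean 102 ± 24.5; SD, n = 2), so that the Mir17hg cluster had 24.3 and 42.8 times its counts. Mir92-2 led it with 190 and 101 counts, followed by Mir20b with 54 and 47, Mir106a with 34 and 20 and Mir363 with 30 and 22. Mir18b had 0 and 2 counts and Mir19b-2 had 0 and 1, so the miR-19 gene of this cluster was as low as those of the Mir17hg cluster. Of the 4 tested genes, Mir92-2 was higher in replicate 1 (log2 ratio -0.69, adjusted p = 0.000166, exact conditional binomial test), and the other 3 did not pass. Mir92-1, which shares its miRNA, had 12.8 times the counts of Mir92-2 in replicate 1 and 23.4 times in replicate 2. Reads that fit both loci are in neither count, and how many there were was not tested. The 5p arms of miR-17 and miR-106a differ by 1 base (U10A, with the base of miR-17 first), and Mir17 and Mir106a stood at 1621 ± 351 and 10.9 ± 3.11 CPM (SD, n = 2 each).

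Summed over seeds, the 2 clusters supplied most of the counts of their families. The 7 genes of the table with an arm of the miR-17 seed held 4578 and 5092 CPM in replicates 1 and 2, of which the 4 members gave 99.3% and 99.4%. The 7 genes with the miR-25 and miR-92a seed held 1315 and 1259 CPM, and Mir92-1 and Mir25 gave 87.9% and 89.3%. These sums and shares leave out reads that fit both Mir92-1 and Mir92-2. Of the remaining genes with this seed that lie outside the 3 clusters, Mir92b had 99 counts in each library, Mir32 had 94 and 87, and Mir367 had 0 in both. The 2 miR-18 genes held 71.8 and 83.8 CPM, and the 3 miR-19 genes 2.32 and 4.36 CPM. The miR-17 seed family and the miR-25 and miR-92a seed family each hold a member called as higher in replicate 1 (Mir106b and Mir25), beside members called as higher in replicate 2. Their sums were 4835 ± 364 and 1287 ± 39.7 CPM (SD, n = 2 each).

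A list of miRNAs described as restraining the cell cycle (the miR-15 and miR-16 family, which represses cyclins and their kinases, and the miR-34 family) was set beside the clusters. All 11 genes were tested: 7 were higher in replicate 1, 3 in replicate 2 and 1 did not pass, where 32.4% and 30.2% of all tested genes were called in these directions. The median log2 ratio was -0.65, against 0.01 over all tested genes. Its most abundant genes were Mir322, of the former family, at 7306 ± 485 CPM, and Mir34c, of the p53-induced latter family, at 2863 ± 439 CPM (SD, n = 2 each). Both were higher in replicate 2, with log2 ratios of 0.17 and 0.35. Mir15a, at 3215 and 1161 counts, had a log2 ratio of -1.25, close in size to those of Mir106b and Mir25. Mir16-2, the third gene higher in replicate 2 (log2 ratio 0.20, adjusted p = 0.0415, exact conditional binomial test), did not pass with DESeq2 size factors, total counts, all-gene TMM factors, strand ignored or no filter on low counts. With strand ignored Mir497, one of the 7 higher in replicate 1, was not called either, since its 758 and 419 own-strand counts stand at 0 in that column. None of the 11 passed edgeR's exact test with the common dispersion. Mir15a, Mir16-2 and Mir497 were chosen after their values were seen.

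Blood and leukocyte markers were read beside the clusters because both clusters are abundant in blood-forming cells. Of 6 leukocyte miRNAs, 1 was higher in replicate 1, 1 in replicate 2 and 4 did not pass, with Mir146 at a log2 ratio of -0.02 and Mir342 at 0.01. The counts of that list moved with the scaling, to 4 higher in replicate 1 and 0 in replicate 2 with all-gene TMM factors. The erythroid list had 2 of 3 genes higher in replicate 1 and 0 in the other library, where 32.4% and 30.2% of all tested genes were called. Mir451a had 1916 and 799 counts (log2 ratio -1.05), in the direction of Mir106b and Mir25. With strand ignored Mir451a was not called, and why was not tested. The other scalings and the count filters kept its call, and the test with the common dispersion did not. Mir486 did not pass (log2 ratio 0.24, exact conditional binomial test, adjusted p = 0.155). Endothelial Mir126a was in the same direction (-0.92), as were all 4 endocrine and all 4 tested striated muscle genes, against the same 32.4% of all tested genes. The 2 highest endocrine genes, Mir375 and Mir7b, had log2 ratios of -0.17 and -0.48. The 2 highest muscle genes differed more: Mir206 had 737 and 182 counts (-1.80) and Mir499 had 420 and 3 counts (-6.71). Liver Mir122 went the other way, higher in replicate 2 (log2 ratio 0.21). Of the 2 tested kidney genes, Mir192 was higher in replicate 1 (log2 ratio -1.65) and Mir194-2 did not pass. The part of these cell types in the difference of Mir106b and Mir25 was not tested.

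Genes outside the clusters with the most similar levels were found by Euclidean distance of log2(CPM + 1) over the 2 libraries. Nearest to Mir17 were Mir431 (1391 and 1681 CPM, distance 0.15) and Mir31 (1467 and 2139 CPM, 0.22). Nearest to Mir93 were Mir107 (1932 and 2193 CPM, distance 0.11) and Mir361 (1830 and 2190 CPM, 0.17). With 2 libraries this likeness is one of level and of a single ratio.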

How the data were processed

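Each library has 1 deposited table of raw read counts for miRNA genes, with columns for strand ignored, own strand and opposite strand; the authors used mm10 with GENCODE M21, per the deposited notes. The aligner, counter and trimming were not given in the sources used here. The strand columns were read from their totals, and own-strand counts were used. Rows of reads assigned to no gene (unmapped 40.6% and 29.8%, several places 24.0% and 28.0%, no gene 8.94% and 9.44% of all reads in replicates 1 and 2) were left out. All 2202 identifiers matched GENCODE M21.

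CPM are counts per 1000000 own-strand counts in genes. The libraries were compared by an exact binomial test, two-sided and conditional on the sum of both raw counts of a gene. Libraries were scaled by edgeR 4.0.16 TMM factors (1.01 and 0.987, from genes with a summed count of at least 20), Benjamini-Hochberg adjustment ran over the 367 genes with that summed count, and the threshold was 0.05. Log2 ratios use a prior count of 0.5. The test was checked on simulated counts with counting error only, which is the error it assumes. That check says nothing about spread beyond counting error. DESeq2 1.42.0 gave alternative size factors. Shared runs and mature sequences of the members, X paralogs and seed relatives were searched on the annotated strand of all 2202 GENCODE hairpins. The members and lists were chosen with earlier results of these data known. Named genes were all members, their X paralogs and seed relatives, the 2 highest of the cell cycle list and of marker lists, the 2 nearest genes to Mir17 and Mir93, and the widest and narrowest other chain. Intervals of levels and shares are Wilson 95% intervals, those of log2 ratios exact 95% intervals from the binomial test, and the limit for a count of 0 is 3 counts. Reads of the CAST/EiJ allele were counted against the same annotation, and their loss was not tested.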

Additional observations from a re-analysis of the deposited data

Results flagged for a closer look

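Reads outside the gene counts were present in both libraries, above the limit that a count of 0 allows: 2357429 reads of replicate 1 and 1958627 of replicate 2 aligned to several places and were counted in no gene. The mature sequences of Mir19b-1 and Mir92-1 are shared with the X cluster. Which genes these reads came from was not tested.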

How the results depend on the processing

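The number of members that differed between the libraries was 6 as reported and 5 or 6 under other scalings, count filters and strand counting; with edgeR's exact test and the common dispersion of the 2 libraries it was 0, and the number over all genes fell from 230 to 5. That dispersion comes from the same 2 libraries, so this says nothing about the members. None of the 7 tested members changed direction with other scalings, including that with strand ignored, or with a larger prior count. The count filters and the test with the common dispersion reuse the main ratios, so they could not change a direction. Mir19a and Mir19b-1 were not followed there. The summed level of the 9 members, 6024 CPM, was 13394 CPM without the 10 most abundant genes in the denominator and 6938 CPM with strand ignored, where the total is smaller. The share of Mir17 in the Mir17hg cluster, 49.7%, was 71.6% over members with no shared mature sequence, which leaves out Mir92-1 and Mir19b-1. Without replicate 1 or without replicate 2, levels and shares are those of the library that remains (5774 to 6274 CPM for the 9 members, 47.4% to 51.9% for Mir17, 70.2% to 86.8% for Mir93). TMM factors from all genes, chosen after seeing the data, moved the median log2 ratio of tested genes by -0.13, so that 85 were higher in replicate 2 and 139 in replicate 1, against 111 and 119; Mir92-1 did not pass there (log2 ratio 0.04). The ranges within the clusters could not move with a summed count of at least 200 or a gap of at most 2 kb. Both settings keep the same tested members. The ranks could move. The Mir17hg cluster, rank 16 of 17 in the main setting, was rank 12 of 12 and 18 of 18 in these settings. The miR-106b-25 cluster, rank 8 of 17, was rank 6 of 12 and 8 of 18. No paired analysis was possible because there is 1 group. Mir19a and Mir19b-1 had at most 8 counts in a library, which limits what their values can show. Why they were low was not tested.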
